A study of Danio rerio with 4 samples.

Results

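The vitellogenin genes encode the yolk protein precursors of egg-laying vertebrates. Their 8 copies, vtg1 to vtg8, were taken from the count table by gene symbol, 1 gene ID each among the 32520 genes listed. The rule that chose them used no expression value, though earlier results of these data were known when it was set. To compare the copies one by one, RNA-Seq read counts of 2 ovaries and 2 testes were examined, with the ovary libraries shown apart. All fish were adult AB zebrafish, Danio rerio, with 1 individual per library. The females and males were null controls, kept in water with neither the aromatase inhibitor exemestane nor its solvent DMSO, and per the methods of the study each adult group was kept in 1 tank. The fish given exemestane or DMSO were not analysed here.

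Vitellogenin is made mainly in the liver of females, where oestradiol bound to its receptor switches the genes on. The protein is secreted into the blood, taken up by growing oocytes through receptors of the low density lipoprotein receptor family, and cut by cathepsins into the yolk proteins. In fish, vtg transcripts are therefore widely read as a measure of oestrogen exposure, and males carry the same genes. Zebrafish copies are grouped by sequence into type I (vtg1, vtg4, vtg5, vtg6 and vtg7), type II (vtg2 and vtg8) and type III (vtg3), whose protein lacks the serine-rich phosvitin part. The type I copies are closely alike, so reads that align to several of them may have been left out of the counts, and the value of each single copy is uncertain to that extent. Of the 8 symbols, 7 were matched in the RefSeq annotation of a later assembly, GRCz12tu. There vtg5, vtg4, vtg6, vtg7, vtg2 and vtg8 follow each other in this order on 1 chromosome, with 5 other genes or pseudogenes between the first and the last, and vtg3 lies on another chromosome. The span of vtg8 overlaps that of 1 uncharacterised gene in that assembly, with strand not compared. Overlap in the annotation used for counting was not checked, so the counts of vtg8 may be uncertain too. No coordinates are given, since the counts were made on the build GRCz11.

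The libraries held between 11554811 and 26137839 counts. The tissue labels fitted their markers. The 6 oocyte genes examined (gdf9, bmp15, zar1, figla, zp3b and buc) summed to 7248 and 4676 CPM (read counts per 1000000 counts of the scaled library) in the ovaries, against 49.9 and 41.6 CPM in the testes. The genes of testis germ cells (4 gene IDs of tekt1, dnai1 and sycp3) summed to 0.635 and 1.21 CPM in the ovaries, against 847 and 772 CPM in the testes. Between the replicates of one tissue, counts differed by far more than sampling noise, with a chi-square of 56.7 per degree of freedom for the ovaries and 31.5 for the testes.

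Vitellogenin reads were a small part of every library. All 8 copies together had 5197 counts in ovary 1, 657 in ovary 2, 223 in testis 1 and 255 in testis 2, which is 275, 44.2, 14.6 and 16.3 CPM. Ovary 1 stood far above the other libraries, and ovary 2, in CPM, was nearer to the testes than to ovary 1. Without vtg1 the sums were 110.0 and 15.8 CPM in the ovaries, against 10.2 and 13.7 CPM in the testes. Ovary 2 thus lay just above the testes once this copy was left out. That order depended on the scaling: with counts divided by library totals alone, ovary 2 lay below both testes. In gonads sequenced whole, fewer cells of a type and less RNA per cell cannot be told apart.

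**Figure D1:**
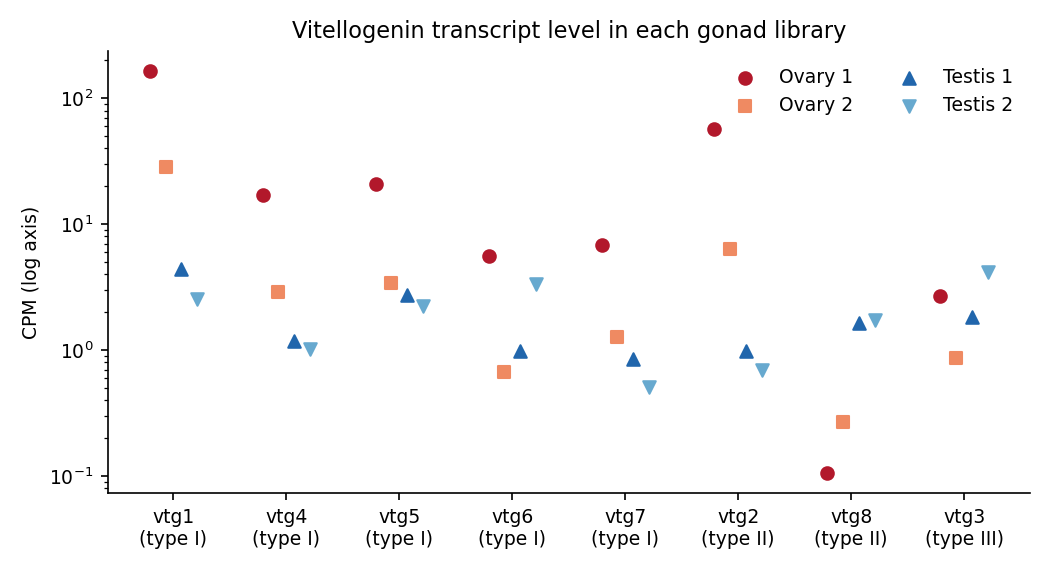
CPM of each vitellogenin copy in each library, on a log axis, with copies ordered by type. Ovary 1 is the highest library for vtg1, vtg2, vtg4, vtg5, vtg6 and vtg7, testis 2 is the highest for vtg3, and both testes lie above both ovaries for vtg8.

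All 8 copies passed the filter on low counts, vtg8 only through the testes, and were tested between testis and ovary in 1 fit over 21815 genes. At an edgeR adjusted p under 0.05, 3 copies were higher in ovary (vtg1, vtg2 and vtg4), 1 was higher in testis (vtg8) and 4 were not called. Since vtg8 could enter the test only through the tissue where it was high, its call is a description and not support for a difference. Over all genes tested, 28.5% were called higher in ovary and 36.7% higher in testis, so 3 of 8 in ovary was not far from what genes in general gave, and 1 of 8 in testis was below it. With library size alone these numbers over all genes were 3833 and 10412, against 6217 and 8002. In CPM, both ovaries lay above both testes for 5 copies and both testes above both ovaries for 1. Among all genes tested these patterns held for 36.6% and 48.1%. The count for the copies depended on the scaling: with library size alone, vtg5 and vtg7 overlapped between the tissues. The median log2 fold change of the copies, testis minus ovary, was -2.43, against 0.45 for all genes tested.

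Among the type I copies, vtg1 (ENSDARG00000092233) is the copy most often measured in tests for oestrogens. It had 3120 and 422 counts in the ovaries and 67 and 40 in the testes, or 165 and 28.4 CPM against 4.40 and 2.56 CPM. Both ovaries lay above both testes, and ovary 1 far above ovary 2. The log2 fold change was -4.80 ± 0.87 (SE, with an edgeR adjusted p of 0.00443), which is 27.8-fold higher in ovary. Without ovary 1 it was -2.97, still past the threshold (edgeR adjusted p = 0.00841).

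For vtg4 (ENSDARG00000078429), the counts were 320 and 43 in the ovaries and 18 and 16 in the testes (16.9, 2.89, 1.18 and 1.02 CPM). The groups did not overlap, and the testes were nearly alike. The log2 fold change was -3.17 ± 0.93 (SE, with an edgeR adjusted p of 0.0249). This call was the least firm of the 3: without ovary 1 the log2 fold change was -1.34 (edgeR adjusted p = 0.15), without testis 1 and testis 2 the adjusted p was 0.0756 and 0.0805, and with scaling by library size alone it was 0.0647.

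vtg5 (ENSDARG00000092126) and vtg7 (ENSDARG00000092419) had the same order of libraries as vtg4 but were not called. vtg5 had 391 and 51 counts in the ovaries against 42 and 35 in the testes (20.7, 3.43, 2.76 and 2.24 CPM), with a log2 fold change of -2.27 ± 0.87 (SE, with an edgeR adjusted p of 0.058). vtg7 had 130 and 19 counts against 13 and 8 (6.88, 1.28, 0.853 and 0.511 CPM), with a log2 fold change of -2.58 ± 0.97 (SE, with an edgeR adjusted p of 0.0552). For both copies ovary 2 and the higher testis were close, and with library size alone ovary 2 lay below that testis. DESeq2's Wald test called both (adjusted p = 0.0144 and 0.0267). Without ovary 1 the log2 fold changes were -0.41 for vtg5 and -0.85 for vtg7, and without ovary 2, where edgeR called both, they were -3.08 and -3.35.

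The fifth type I copy, vtg6 (ENSDARG00000016825), did not separate the tissues. It had 105 and 10 counts in the ovaries and 15 and 53 in the testes, or 5.56 and 0.672 CPM against 0.984 and 3.39 CPM. The highest library was an ovary and the next highest a testis. The log2 fold change was -0.52 ± 1.06 (SE, with an edgeR adjusted p of 0.682), and it ran from -1.69 without testis 2 to 1.71 without ovary 1. With library size alone it was 0.27.

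Of the type II copies, vtg2 (ENSDARG00000055809) had 1078 and 95 counts in the ovaries and 15 and 11 in the testes (57.1, 6.39, 0.984 and 0.703 CPM). Even ovary 2 had several times the level of either testis. Its log2 fold change of -5.22 ± 1.09 (SE, with an edgeR adjusted p of 0.00722) was the largest of the 8 copies in ovary direction, and it was -2.86 without ovary 1 (edgeR adjusted p = 0.0242).

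vtg8 (ENSDARG00000092028), the other type II copy, had 2 and 4 counts in the ovaries and 25 and 27 in the testes (0.106, 0.269, 1.64 and 1.72 CPM). The testes were nearly equal and both lay above the ovaries, which were near the level of 3 counts. The log2 fold change was 3.16 ± 0.74 (SE, with an edgeR adjusted p of 0.0104). As vtg8 passed the filter only through the testes, this call is a description and not support. With the libraries of each tissue added up, 52 counts in testis against 6 in ovary gave a ratio of 9.47. Its exact 95% interval, 4.07 to 27.0, covers counting error alone and not differences between fish, so it is no support either. Without ovary 1 vtg8 was not called (log2 fold change 2.65, edgeR adjusted p = 0.0524), and it had too few ovary counts to be tested once 10 counts were asked for in each library.

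The type III copy, vtg3 (ENSDARG00000016448), had 51 and 13 counts in the ovaries and 28 and 65 in the testes (2.70, 0.874, 1.84 and 4.15 CPM). The groups overlapped, with testis 2 highest and ovary 2 lowest. The log2 fold change was 0.73 ± 0.79 (SE, with an edgeR adjusted p of 0.442), and it ran from 0.01 without testis 2 to 1.80 without ovary 1.

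**Figure D2:**
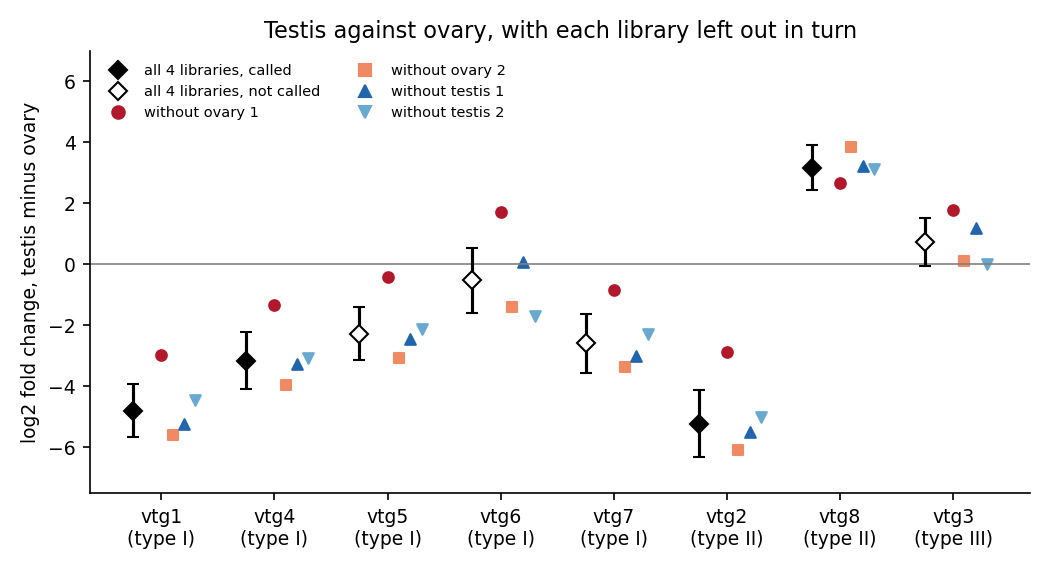
Log2 fold change of testis minus ovary for each copy from all 4 libraries (diamonds, bars are SE, filled where the edgeR adjusted p was under 0.05) and with each library left out in turn (coloured points). Leaving out ovary 1 brings vtg1 from -4.80 to -2.97 and vtg2 from -5.22 to -2.86, turns vtg6 to 1.71, and leaves vtg8 positive at 2.65.

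Which copies the reads came from differed between the tissues. These are shares of reads and not of molecules, since counts were not divided by transcript length, so each copy is compared between libraries and not with other copies. vtg1 took 60.03% (95% Wilson interval 58.7 to 61.4) of the vitellogenin reads in ovary 1 and 64.2% (60.5 to 67.8) in ovary 2. In the testes it took 30.0% (24.4 to 36.4) and 15.7% (11.7 to 20.7). The ovaries were close to each other although one had many times the reads of the other, and both testes lay below them. vtg2 took 20.7% and 14.5% in the ovaries and 6.73% and 4.31% in the testes.

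The reads of the testes were spread more evenly over the copies. Shares are parts of a whole, so a copy can have a larger share at a lower level. vtg3 took 0.981% (0.747 to 1.29) and 1.98% (1.16 to 3.36) in the ovaries against 12.6% (8.83 to 17.6) and 25.5% (20.5 to 31.2) in the testes. vtg8 took 0.0385% and 0.609% in the ovaries and 11.2% and 10.6% in the testes. vtg6 took 2.02% and 1.52% in the ovaries, 6.73% in testis 1 and 20.8% in testis 2. vtg5 took 7.52% and 7.76% in the ovaries, 18.8% in testis 1 and 13.7% in testis 2. Its level, however, was lower in the testes, at 2.76 and 2.24 CPM against 20.7 and 3.43 CPM in the ovaries. vtg7 took 2.50% and 2.89% in the ovaries, 5.83% in testis 1 and 3.14% in testis 2, the last close to the ovaries. By contrast, vtg4 took between 6.16% and 8.07% in all 4 libraries. Type I copies together made up 78.2% and 83.0% in the ovaries and 69.5% and 59.6% in the testes. The intervals cover counting error only. With 2 libraries a tissue, an exact two-sided permutation test of such a share cannot give a p below 0.333, so none was run.

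**Figure D3:**
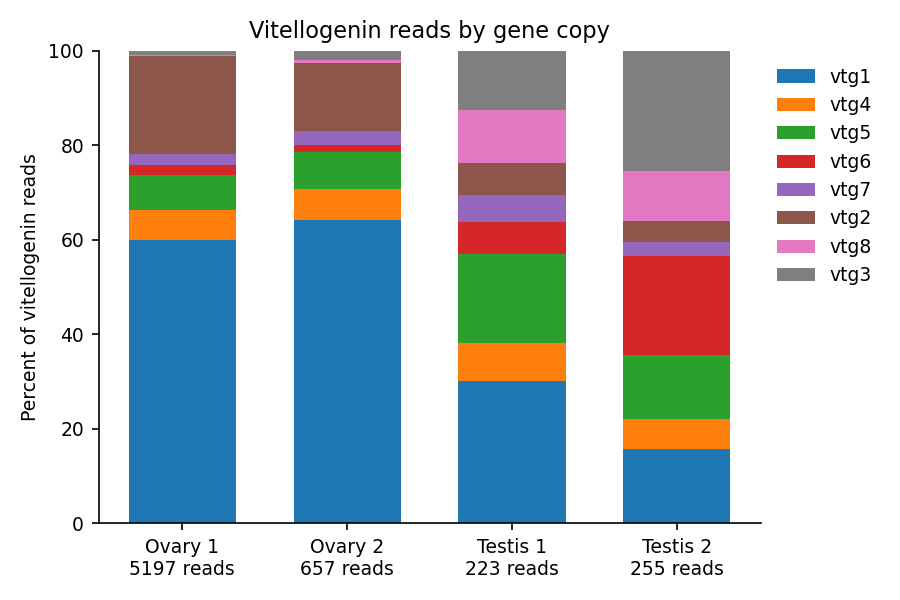
Percent of all vitellogenin reads that came from each copy in each library, with the number of reads under each bar. vtg1 makes up 60.03% and 64.2% in the ovaries and 30.0% and 15.7% in the testes, where vtg3, vtg5, vtg6, vtg7 and vtg8 take larger parts than in the ovaries.

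The ovary libraries were next set against each other. This compares 2 fish, with no replicate check, and the intervals cover counting error only. In CPM, 7 of the 8 copies were higher in ovary 1. The ratio of ovary 1 to ovary 2 was 5.82 (95% interval 5.26 to 6.46) for vtg1, 5.86 (4.25 to 8.26) for vtg4, 6.04 (4.50 to 8.25) for vtg5, 5.39 (3.32 to 9.24) for vtg7 and 8.27 (4.32 to 17.8) for vtg6. The intervals of these type I copies overlap, and all of them exclude a ratio of 1. For vtg2 the ratio was 8.94 (7.24 to 11.1), above the interval of vtg1. It was 3.09 (1.66 to 6.19) for vtg3 and 0.394 (0.0356 to 2.75) for vtg8, which had too few ovary reads to give a direction.

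Among the 10531 tested genes with a mean of at least 10 CPM over the ovaries, the median ratio was 1.05 and the 5th and 95th percentiles were 0.52 and 1.71. In the direction of ovary 1, the ratio of vtg1 was reached or passed by 45 of these genes, itself included (0.427%), that of vtg5 by 43 and that of vtg2 by 26. Genes as far apart in the other direction were not counted. The genes with a symbol and the largest ratios were zgc:173544, si:ch211-161h7.5, kcnk5, c7b and rrm2, with ratios from 86.6 to 2999. In the other direction si:ch211-113a14.9, si:ch211-113a14.17, u3, si:ch211-113a14.20 and si:dkeyp-98a7.4 were higher in ovary 2 by 63.8 to 648 times. The ovaries thus also differed in genes unrelated to yolk, such as rrm2, a subunit of ribonucleotide reductase, and the small nucleolar RNA u3. Each of these named genes had the same order by replicate number in the testes, some of them on few counts. In testis 1 and testis 2, rrm2 had 30.0 and 2.75 CPM, and u3 had 0.0656 and 0.511 CPM. The cause was not tested.

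**Figure D4:**
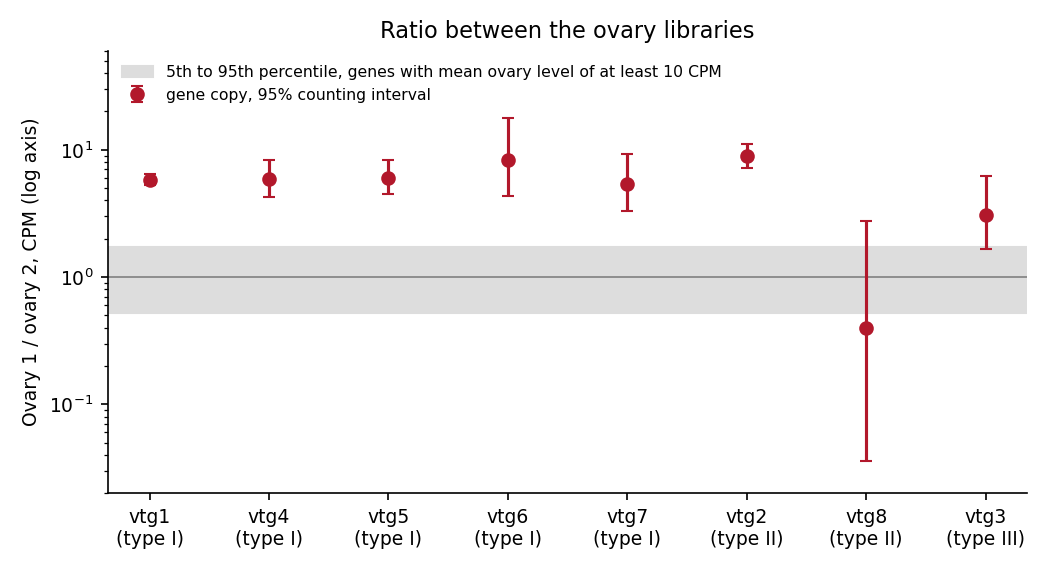
Ratio of ovary 1 to ovary 2 in CPM for each copy, on a log axis, with 95% counting intervals. The grey band spans the 5th to the 95th percentile (0.52 to 1.71) of the 10531 tested genes with a mean of at least 10 CPM over the ovaries, a level reached by vtg1, vtg2 and vtg5. All copies but vtg8 have ratios of 3.09 or more.

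Since the liver is the known source of vitellogenin, transcripts of other liver genes were examined. Of 28 listed liver genes, 25 were found in the table, and they summed to 45.2 and 36.1 CPM in the ovaries, against 183 and 95.7 CPM in the testes. Several are also expressed outside the liver. rbp4, the plasma retinol carrier and the most abundant of them, had 25, 100, 1303 and 91 counts in ovary 1, ovary 2, testis 1 and testis 2. The complement gene c3a.1 had 274, 54, 301 and 145 counts, and itih2, a chain of a plasma protease inhibitor, had 280, 212, 87 and 164. In the ovaries plg, hp, hpda and uox were at 0 counts in both libraries, and the hepatocyte gene fabp10a had 7 and 1 counts there and 11 and 3 in the testes. Between the ovaries the liver genes went both ways. In ovary 1 and ovary 2, fga had 36 and 3 counts, serpina1 12 and 1, tfa 80 and 16, and fetub 10 and 0. By contrast, f2 had 12 and 51 counts and agt 2 and 16, and rbp4 was also higher in ovary 2. For kng1 and itih2 the ratio of ovary 1 to ovary 2 in CPM was 0.992 and 1.04. Of the 16 liver genes tested, 7 were higher in testis, 0 were higher in ovary and 9 were not called by edgeR, where 36.7% and 28.5% of all genes were called. Of those 7, plg, ahsg1, apoa2, ttr, ambp and fgb had at most 10 counts in either ovary and passed the filter only through the testes, so nothing is read from this count.

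Per count of the liver list, vitellogenin had 6.09 counts in ovary 1 (exact 95% interval 5.66 to 6.55), 1.22 in ovary 2 (1.09 to 1.37), 0.0802 in testis 1 and 0.170 in testis 2. Both ovaries lay above both testes also on this scale. The list counts, however, came largely from a few genes, so this is not a scale of liver RNA. In ovary 2, itih2 and rbp4 had 212 and 100 of the 537 list counts, and in testis 1 rbp4 had 1303 of 2781. Ovary 1 remained higher than ovary 2, by less than in CPM. Set against the fibrinogen chain genes fga, fgb and fgg alone, which were chosen after the data had been seen and had 56, 12, 68 and 65 counts in all, the values were 92.8 (71.4 to 123) and 54.8 (31.1 to 106.5) in the ovaries and 3.28 and 3.92 in the testes. On this scale the intervals of the ovaries overlapped. Of these genes, fga itself had 36 and 3 counts in ovary 1 and ovary 2, so nothing is read from the overlap. The part of liver RNA in the vitellogenin reads was not tested.

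Other tissues were checked in the same way. Genes of an intestine list (fabp2, vil1, fabp6, apoa4b.1, chia.2 and cdh17) summed to 17.2 and 4.77 CPM in the ovaries, against 7.48 and 14.6 CPM in the testes, the same order of libraries within each tissue as vtg6 and vtg3. In this list chia.2, a chitinase gene, had 138, 7, 4 and 65 counts, and fabp2, an intestinal fatty acid carrier, 48, 4, 1 and 20. Of 8 listed blood genes, 5 were found, and they summed to 3.49 and 13.4 CPM in the ovaries, against 54.6 and 56.7 CPM in the testes. Much of this was cahz, with 35.4 and 37.1 CPM in the testes, while hbaa1 and epb41b overlapped between the tissues. Adipose genes were at 13.3 and 10.4 CPM in the ovaries and at 49.2 and 10.7 CPM in the testes. In testis 1, fabp4a alone had 43.4 CPM. The part of these tissues in the values of the copies was not tested.

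The genes that take up and process yolk were then compared. Of 38 listed symbols 29 were found, and of their 28 tested gene IDs 11 were higher in ovary, 8 were higher in testis and 9 were not called, where 28.5% and 36.7% of all genes were called. mttp, apobb.2 and ctsbb, among the 8, passed the filter only through the testes. The median log2 fold change was 0.47, against 0.45 for all genes. The receptor genes differed strongly from one another. vldlr, which encodes the vitellogenin receptor, had 985 and 643 CPM in the ovaries, against 8.46 and 4.02 CPM in the testes. Ovary 1 exceeded ovary 2 by 1.53 times for vldlr, against 5.82 times for vtg1. Its log2 fold change was -7.03 ± 0.56 (SE, with an edgeR adjusted p of 0.000287). lrp13, a related receptor reported to bind vitellogenin in other fish, had a log2 fold change of -4.15 ± 0.52 (SE, with an edgeR adjusted p of 0.00116), with 1685 ± 734 CPM in ovary and 94.8 ± 21.5 CPM in testis (SD, n = 2).

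Partners of these receptors were also higher in ovary. lrpap1, a chaperone of the receptor family, had a log2 fold change of -2.04 ± 0.21 (SE, with an edgeR adjusted p of 0.000621). Of the 2 gene IDs named dab2, an adaptor that links such receptors to clathrin, one (ENSDARG00000031761) had a log2 fold change of -5.30 ± 0.38 (SE, with an edgeR adjusted p of 0.000224), and the other (ENSDARG00000053091) was not called, at 0.99 ± 0.51 (SE). ldlrb and stab2 were higher in ovary as well, at -1.32 and -0.88, but neither passed with library size scaling. In contrast, lrp8, stab1 and cubn were higher in testis, by 2.05, 2.35 and 2.31. lrp1ba, lrp2b and ldlra were not called.

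Of the cathepsins, ctsla had 991 ± 64.0 CPM in ovary and 75.5 ± 12.4 CPM in testis (SD, n = 2), and ctsd, whose product is known to cleave vitellogenin, had 389 ± 104 and 122 ± 9.87 CPM (SD, n = 2). Their log2 fold changes were -3.71 ± 0.34 and -1.67 ± 0.29 (SE, with an edgeR adjusted p of 0.000419 and 0.0036). ctsz was also higher in ovary (-2.15), ctsbb was higher in testis (2.80) and ctsk was not called. Of the lipid handling genes, scarb1, a lipoprotein receptor, and lipg, a lipase, were higher in ovary at -4.28 and -6.20, whereas both gene IDs named lpl, lipoprotein lipase, were higher in testis at 2.72 and 3.42.

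Relatives of the vitellogenins were also examined. Vitellogenin, apolipoprotein B and the microsomal lipid transfer protein belong to 1 protein family. mttp, for the last of these, had 0.371 and 0.471 CPM in the ovaries, against 2.76 and 2.81 CPM in the testes, with a log2 fold change of 2.71 ± 0.65 (SE, with an edgeR adjusted p of 0.012). apobb.1 had 779 and 66 counts in the ovaries and 168 and 473 in the testes (41.2, 4.44, 11.0 and 30.2 CPM), the same order of libraries as vtg6, and a log2 fold change of -0.15 ± 0.96 (SE, with an edgeR adjusted p of 0.898), which turned to 0.66 with library size alone. apobb.2 was at 2.27 ± 0.80 (SE, with an edgeR adjusted p of 0.0448), which DESeq2 size factors took to 0.0505. As mttp and apobb.2 passed the filter only through the testes, their calls are descriptions and not support for a difference. Of 4 listed oestrogen receptor symbols, 2 were found and only 1, esr1, had enough counts to be tested. The oestrogen receptor gene esr1 had 30 and 76 counts in the ovaries and 108 and 85 in the testes, and was not called (0.91 ± 0.69, SE, edgeR adjusted p = 0.283). In the ovaries esr1 was lower in ovary 1, at 0.311 times its level in ovary 2. Of 10 listed genes of gonad somatic cells, 8 were found, and foxl2a and cyp19a1a were not among them. The 8 found were lower in ovary 1 too, among them inha (0.206), fshr (0.314) and cyp17a1 (0.85). Some had few ovary counts, such as insl3 with 1 and 5 and star with 10 and 24. The median ratio was 1.05 over the 10531 tested genes with a mean of at least 10 CPM, a level most of the 8 did not reach. The cause was not tested. A link between esr1 and vtg1 was not tested.

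**Figure D5:**
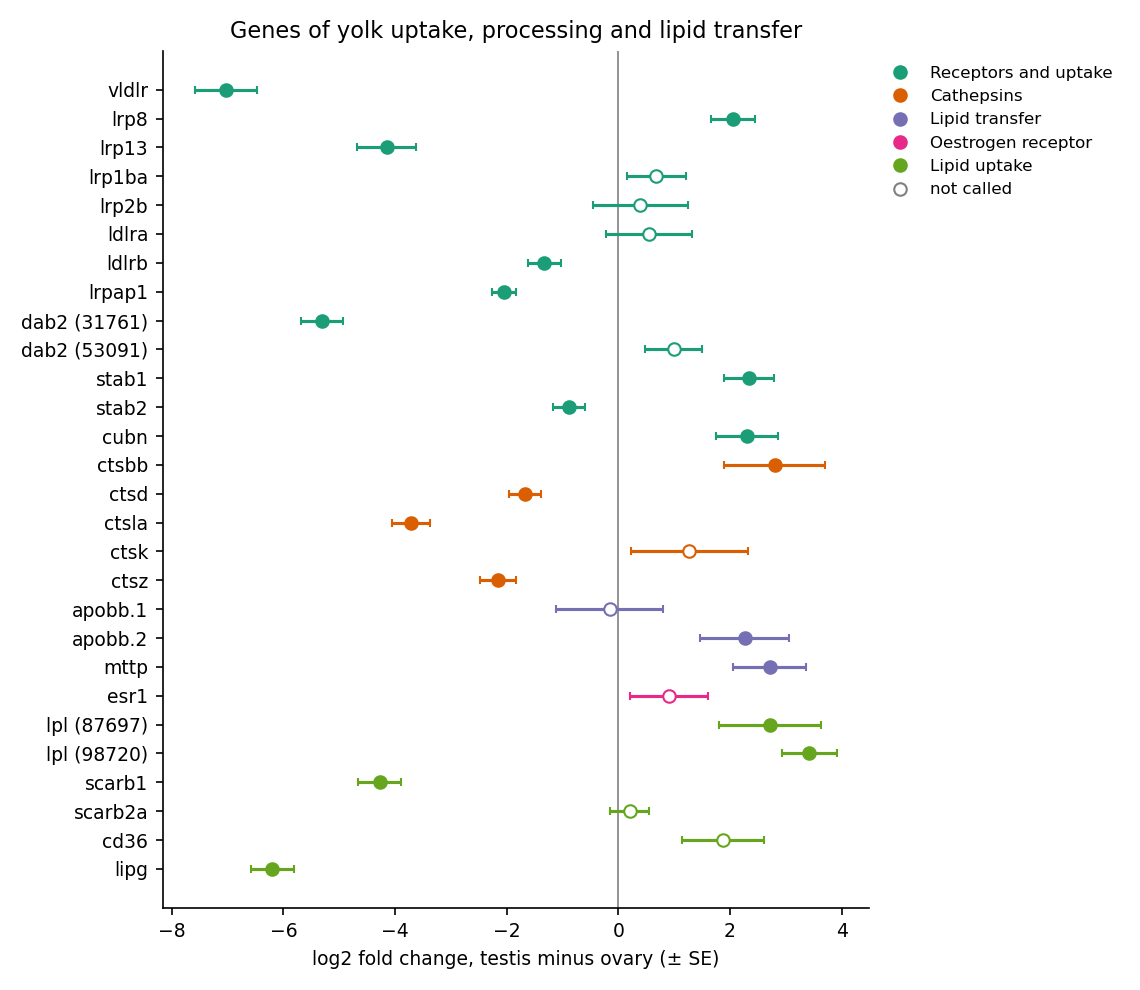
Log2 fold change of testis minus ovary (points, bars are SE) for the 28 tested gene IDs of yolk uptake, processing and lipid transfer, by group. Filled points had an edgeR adjusted p under 0.05, with vldlr at -7.03 and lipg at -6.20 as the lowest values and lpl at 3.42 as the highest. Digits after dab2 and lpl are the end of the gene ID.

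Genes with a pattern like that of vtg1 were looked for by the distance between log2 CPM values of the 4 libraries, each centred on its own mean. The nearest named gene was vtg2, at a distance of 0.485. It was followed by chmp4c, a subunit of the membrane-cutting ESCRT machinery (0.749), si:ch211-13b16.1 (0.85), the opsin gene tmtopsb (0.912) and alox5b.3, of the lipoxygenase family (0.921). alox5b.3 had 307 and 45.8 CPM in the ovaries, against 4.66 and 6.77 CPM in the testes, with the testes in the opposite order to vtg1. With a smaller prior count of 0.5, only 3 of these 5 genes remained among the nearest 5. Such a distance rests on 4 libraries and is a description.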

How the data were processed

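Gonads of 2 female and 2 male null control fish were sequenced, and each column of the deposited table matched 1 sample. The authors aligned reads with HISAT2 2.0.5, dropped duplicate reads (SAMtools 1.5) and made strand-specific gene counts (HTSeq 0.9.1), so the deposited values are raw counts. Per the labels, the build was GRCz11 and ribosomal RNA had been removed. The methods describe poly(A) libraries for adults. Removing duplicates compresses abundant genes, and counting may leave out reads shared between similar copies.

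Gene IDs were named from a symbol table (29201 of 32520 matched). Genes were filtered with filterByExpr, libraries were scaled by TMM, and testis was tested against ovary with edgeR 4.0.16 (quasi-likelihood, Benjamini-Hochberg adjustment over 21815 genes, R 4.3.3). DESeq2 1.42.0, other scalings and filters, thinning, a replicate block and each library left out were tried. The SE is the log2 fold change divided by the square root of F. Intervals are exact binomial or Wilson (scipy 1.17.1). The code was tested on simulated data.

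Members, lists and tests were chosen with earlier results of these data known. By rule, all copies, tested genes of the receptor, lipid transfer and oestrogen receptor groups, the 5 genes nearest to vtg1, the 5 with the largest ratio between ovaries each way and the 3 most abundant liver genes were named. Other names, such as cathepsins and lipid uptake genes, were chosen after their values were seen. The types of the copies are background knowledge.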

Additional observations from a re-analysis of the deposited data

How the results depend on the processing

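The direction of vtg1, vtg2, vtg3, vtg4, vtg5, vtg7 and vtg8 held under each alternative that gave a value. vtg1 and vtg2 passed in all of them. With library size alone, which moved the median log2 fold change of all genes from 0.45 to 1.19, vtg4 no longer passed (-2.36), vtg6 turned to 0.27, the ratio of ovary 1 to ovary 2 of vtg1 was 5.12, and 3833 genes in all were higher in ovary, against 6217. DESeq2's Wald test called 5 copies higher in ovary (6570 genes in all), with vtg5 at -2.38 and vtg7 at -2.68. DESeq2 size factors in edgeR also called vtg7 (-2.68), with 6402 genes in all higher in ovary. With 10 counts asked for in each library, where vtg7 and vtg8 were not tested, 0 copies were higher in testis and 4566 genes in all were, against 8002. At an adjusted p under 0.01 these numbers were 0 and 5258, while by DESeq2's Wald test they were 1 and 7453.

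With each library left out in turn, the lone library was assumed to vary like those of the other tissue. The log2 fold change ran from 0.01 to 1.80 for vtg3, from -3.97 to -1.34 for vtg4, from -3.08 to -0.41 for vtg5, from -1.69 to 1.71 for vtg6, from -3.35 to -0.85 for vtg7 and from 2.65 to 3.86 for vtg8. The number of copies called is not given for these fits. vtg6 turned to 1.71 without ovary 1 and to 0.085 without testis 1.

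Vitellogenin counts per liver count were 1.503 in ovary 2 and 0.151 in testis 1 without rbp4, the most abundant gene. They were 7.02 in ovary 1, 0.097 in testis 1 and 0.295 in testis 2 without genes under 10 counts in ovary 2. With the fibrinogen genes alone, an alternative added after seeing the data, they were 92.8, 54.8, 3.28 and 3.92. Of the 28 yolk list genes, 27 kept their side of the threshold and direction with DESeq2 size factors and 23 with library size alone, where apobb.1 turned to 0.66. The causes were not tested.

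The labels do not pair fish of different sexes by replicate number, and deviations of same-numbered libraries were correlated at -0.03 across genes. In the fit that took the replicate number as a block, 3 copies were higher in ovary and 1 in testis (5610 and 7191 genes in all). There the SE fell from 0.87 to 0.53 for vtg1 and from 1.09 to 0.52 for vtg2. It fell by less for vtg4, vtg5 and vtg7 and rose for vtg3, vtg6 and vtg8. Shares per coding length and promoter motifs were not run, since no coding lengths or promoter sequences were used here. Depth limits vtg8 most, with 2 and 4 ovary counts. A count of 3 was worth between 0.159 and 0.202 CPM.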

Other observations

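The copies that did not follow vtg1 had other neighbours in pattern, by the same distance over 4 libraries. These were looked up after the values had been seen and are given with no test. Since they were chosen for their pattern, their order of libraries and their calls follow from that choice and are no support. Nearest to vtg6 was apoea, an apolipoprotein E gene, with 164 and 11 counts in the ovaries and 14 and 54 in the testes (distance 0.551). Next came apobb.1 (0.604), the transcription factor gene nr4a1 (0.617), the aminopeptidase gene anpep (0.648) and kazald1 (0.704). None of these 5 genes was called between the tissues. All had ovary 1 above ovary 2 and testis 2 above testis 1. Nearest to vtg8 was yjefn3, with 2 and 4 counts in the ovaries and 26 and 27 in the testes (distance 0.0456). Nearest to vtg3 were vax2, slc22a21, bbs12, epha4b and ina, at distances from 0.211 to 0.236, and none of them was called.

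Between vtg5 and vtg4 in the annotation lies si:rp71-23d18.4, which had 0 counts in both ovaries and 3 and 26 counts in the testes. It did not pass the filter and was not tested. si:dkey-9p20.1, between vtg2 and vtg8, had 0 counts in all 4 libraries.

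Of the genes with the largest ratio of ovary 2 to ovary 1, si:ch211-113a14.9 had 6 and 3062 counts in the ovaries and 15 and 3151 in the testes, and si:ch211-113a14.17 and si:ch211-113a14.20 were likewise high in replicate 2 of both tissues. No vitellogenin copy had this pattern to a like extent. vtg1, vtg2, vtg4, vtg5 and vtg7 were higher in replicate 1 of both tissues. Their ratios of testis 1 to testis 2 in CPM ran from 1.16 (vtg4) to 1.72 (vtg1). vtg3 and vtg6 were higher in testis 2 but lower in ovary 2. vtg8 was higher in replicate 2 of both tissues, but with 2 and 4 ovary counts and nearly equal testes (1.64 and 1.72 CPM). The cause was not tested.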
